A study of Mus musculus with 9 samples.

Results

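The genes described here encode the nuclear subunits of the oxidative phosphorylation machinery, together with the Ndufaf assembly factors of complex I. They were chosen by symbol, as every gene whose name begins with Nduf, Uqcr, Atp5 or Cox4 to Cox8, plus Sdha, Sdhb, Sdhc and Sdhd. This gave 92 of the 18875 genes with deposited values, and all 92 were tested, having reached 1 TPM in 3 or more libraries (TPM, the deposited unit, is a share of all transcripts after division by transcript length). Complex I contributed 7 core and 30 accessory subunits, its Ndufaf assembly factors 8 genes, complex II 4, complex III 8, complex IV 18 and complex V 17. Ndufa4, Ndufa4l2 and Cox7a2l were counted with complex IV. No mitochondrially encoded subunit is among the values used here, so only the nuclear part of each complex was followed.

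Oxidative phosphorylation takes place in the inner mitochondrial membrane. Complex I oxidises NADH and complex II oxidises succinate, complex III passes their electrons to cytochrome c, complex IV hands them to oxygen, and complex V, the ATP synthase, uses the proton gradient so built to make ATP. Complexes I, III, IV and V mix subunits made from nuclear and mitochondrial genes, whereas complex II is nuclear throughout. Several complex IV subunits exist as a common form and a tissue-restricted form: Cox6a2, Cox7a1 and Cox8b are the forms of heart and skeletal muscle, Cox4i2 is the form best known from lung, Cox6b2 is best known from testis, and Ndufa4l2 is a hypoxia-induced relative of Ndufa4 found in pericytes.

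Whole lungs of wild-type (WT) BALB/c mice, an inbred strain, were profiled by mRNA sequencing in 3 groups of 3 libraries. In the long-term group PM2.5, particulate matter small enough to reach the alveoli, was instilled intranasally 6 times, every 3 days, at a dose of 10 mg/kg. The short-term group had 1 instillation of that dose, and the PBS group is labelled as exposed long-term to phosphate-buffered saline (PBS). The short-term group therefore had no control of its own duration, and neither the ages of the mice nor the time of collection after the last dose is in the sources used here. Nothing states that each sample is a mouse of its own, so the spread behind every p-value may be technical. In whole lung, fewer cells of a type and less RNA per cell cannot be told apart.

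TPM corrects read shares for transcript length and keeps no record of depth, so the read number behind each value is unknown. The short-term libraries stood apart from the other 6: they held 12560 to 13414 genes at 1 TPM or more, against 13829 to 13930 with long-term PM2.5 and 13534 to 13615 with PBS. Their long transcripts were low. The median of other genes over 2500 bases, as a log2(TPM + 1) difference from the PBS mean, was -0.93, -0.28 and -0.49 in short-term replicates 1, 2 and 3, against a range of -0.052 to 0.066 with long-term PM2.5 and of -0.029 to 0.024 with PBS. OXPHOS transcripts are short, with a median of 775.5 bases against 2817 for the other tested genes, and a comparison of short-term values with genes of like length, and their values after a correction for length and GC content, follow the values as deposited.

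The promoters of 1 common and 2 restricted complex IV genes are printed as single windows and do not stand for common and restricted forms in general. Each runs 5′ to 3′ from 250 bases before to 50 bases after the transcription start in RefSeq on GRCm38.p6, on the minus strand. Capitals mark matches on either strand to the GC-rich NRF1 consensus, the ETS motif (CCGGAAG), the YY1 motif (AAGATGGCG), the ERR element (AAGGTCA) or TATAAA. Cox6a1 is the common form, at chr5:115348909-115349208, Cox8b the muscle form, at chr7:140900397-140900696, and Cox6b2 the testis form, at chr7:4753045-4753344.
Cox6a1: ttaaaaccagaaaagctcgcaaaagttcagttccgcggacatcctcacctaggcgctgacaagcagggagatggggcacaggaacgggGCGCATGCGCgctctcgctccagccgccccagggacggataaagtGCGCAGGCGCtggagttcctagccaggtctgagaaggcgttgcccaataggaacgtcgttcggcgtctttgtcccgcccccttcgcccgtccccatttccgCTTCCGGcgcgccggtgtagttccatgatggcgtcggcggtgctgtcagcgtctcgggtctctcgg
Cox8b: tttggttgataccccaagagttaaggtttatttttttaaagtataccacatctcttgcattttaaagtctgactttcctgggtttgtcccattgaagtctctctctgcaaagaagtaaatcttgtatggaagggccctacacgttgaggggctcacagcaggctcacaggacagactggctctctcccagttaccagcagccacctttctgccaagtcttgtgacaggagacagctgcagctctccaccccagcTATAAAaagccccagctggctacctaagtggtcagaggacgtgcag
Cox6b2: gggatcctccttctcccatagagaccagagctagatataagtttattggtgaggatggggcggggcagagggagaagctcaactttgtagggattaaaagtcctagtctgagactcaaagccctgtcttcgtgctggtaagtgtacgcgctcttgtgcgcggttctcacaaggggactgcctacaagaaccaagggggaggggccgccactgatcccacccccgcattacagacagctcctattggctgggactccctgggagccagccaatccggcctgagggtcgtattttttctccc
The Cox6a1 window holds NRF1 and ETS letters, the Cox8b window holds TATAAA close to the start, and the Cox6b2 window holds none of the 5 motifs. Of the complex IV genes with a promoter window, only Cox6a1 held NRF1 letters. Cox4i1, Cox4i2 and Ndufa4l2 were among the genes without a window. Cox8a and Cox6b1, the common partners of Cox8b and Cox6b2, held ETS letters alone. NRF1, the ETS factor GABP, YY1 and ERR are regulators known to act on respiratory chain genes.

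Promoter windows were at hand for 75 of the 92 genes. NRF1 letters were in 19 of them (25.3%), against 4.68% of all 27025 promoters and 9.44% of the 11132 promoters of tested genes. ETS letters were also in 19 (25.3%), against 9.08% of all and 16.9% of tested promoters. YY1 letters were in 8 (10.7%), against 1.49% of all and 2.89% of tested promoters, and those 8 included Ndufs6, Ndufs7, Atp5j2 and Ndufaf8. The ERR element was in 8 (10.7%), against 4.66% and 3.28%, and TATAAA in 7 (9.33%), against 14.1% and 7.63%. At least 1 of the NRF1, ETS and YY1 motifs was in 39 of the 75. A match of letters is a description of the window and not a site, and a window can hold more than 1 motif, as that of Cox6a1 does.

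OXPHOS transcripts were abundant in every library. Together the 92 genes held 1.78, 1.73 and 1.66% of all TPM in the long-term libraries, 2.67, 2.27 and 2.20% in those of the short-term group and 1.74, 1.58 and 1.66% with PBS. The short-term libraries were above both other groups, and the long-term and PBS libraries overlapped. Levels in TPM differed by class. Over the genes of a class, the median of the group means was highest for complex V, at 294 TPM with long-term PM2.5, 304 TPM with short-term PM2.5 and 277 TPM with PBS. The complex I core subunits had medians of 103, 115 and 98.0 TPM in the same groups. The Ndufaf factors, which help build complex I without staying in it, had medians of 9.80 TPM with long-term PM2.5, 10.3 TPM with short-term PM2.5 and 8.88 TPM with PBS. Ndufb4c was the lowest gene and was listed at 0 in 2 long-term and 2 PBS libraries, and Cox6a1 was the highest gene with PBS, at 912 TPM.

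**Figure D1:**
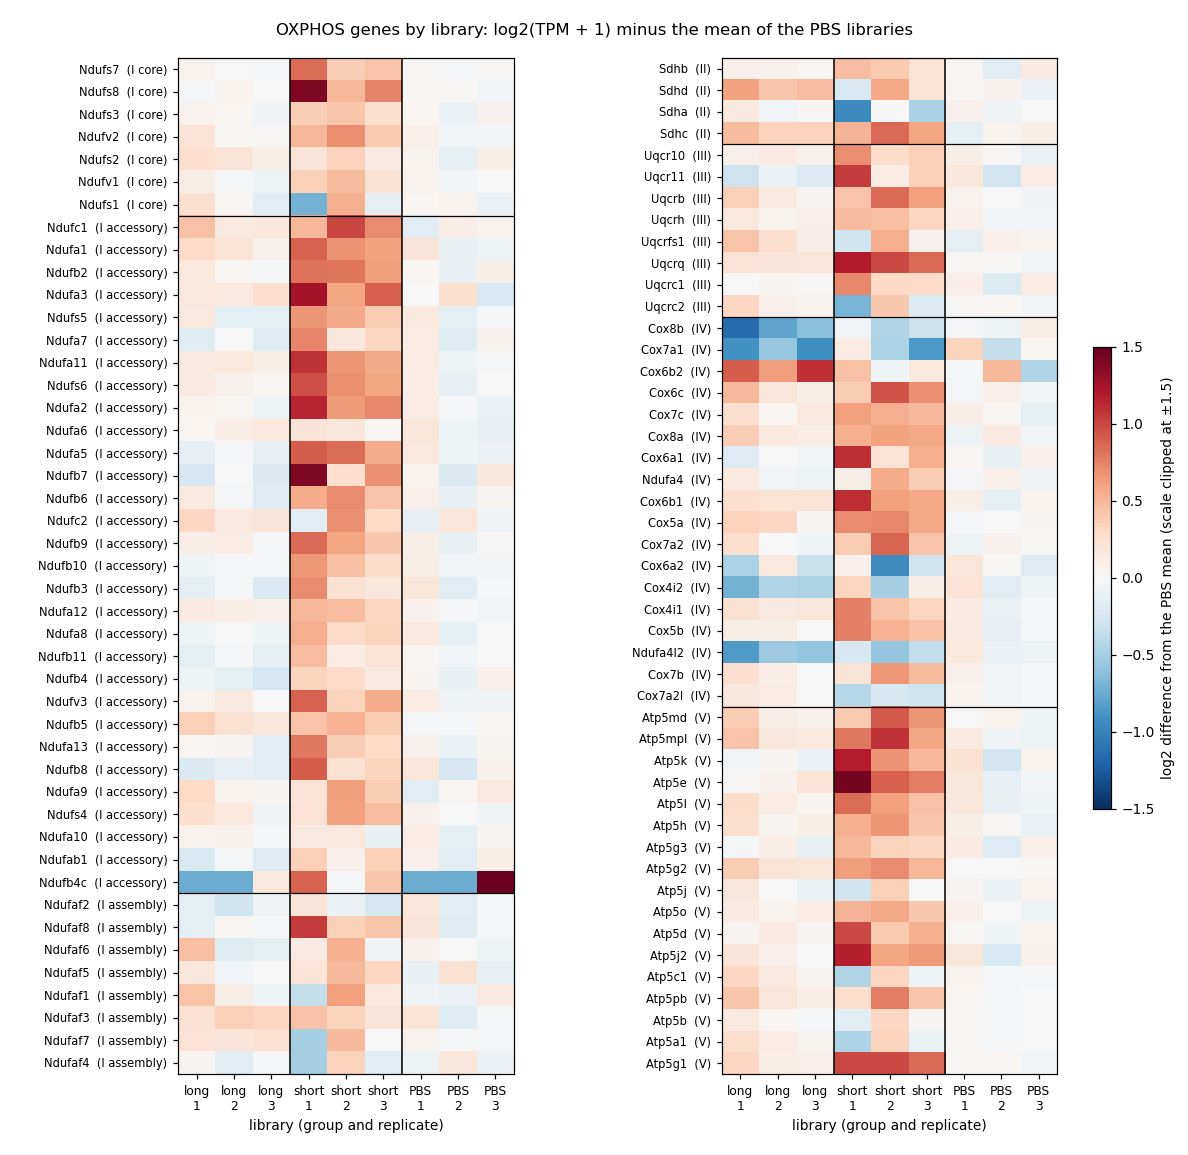
Each row is 1 OXPHOS gene, grouped by complex, and each column 1 library, with long-term PM2.5, short-term PM2.5 and PBS from left to right. Colour gives log2(TPM + 1) minus the mean of the 3 PBS libraries, clipped at 1.5 either way. Most rows are red in the short-term columns and pale in the long-term columns, and Cox8b, Cox7a1, Cox4i2 and Ndufa4l2 are blue in the long-term columns.

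Repeated instillation was asked first: did long-term PM2.5 change OXPHOS genes relative to PBS? Of 92 genes, 1 rose (Cox6b2) and 2 fell (Cox8b and Ndufa4l2), all 3 in complex IV, in limma's moderated test at a Benjamini-Hochberg adjusted p under 0.05 over 13991 tested genes. Over all tested genes 9.51% rose and 1.72% fell. None of the 37 complex I subunits, 8 Ndufaf factors, 4 complex II, 8 complex III or 17 complex V genes passed. At an unadjusted p under 0.05 there were 10 of 92 genes (10.9%), against 22.1% of all tested genes. Long-term and PBS libraries did not overlap for 25 of the 92 genes (27.2%), against 43.2% of all tested genes. The median log2 difference of the 92 genes was 0.07, beside 0.03 over all tested genes, and class medians lay between 0.01 for the complex I core and 0.22 for complex II.

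Cox8b encodes the heart and skeletal muscle form of subunit 8 and lies at chr7:140898942-140900446. It had 19.2, 24.8 and 28.0 TPM with long-term PM2.5, 42.3, 31.8 and 34.8 TPM with short-term PM2.5 and 43.1, 41.3 and 46.9 TPM with PBS. All long-term libraries were below all others. The log2 difference from PBS was -0.86 ± 0.16 (± SE, limma adjusted p = 0.0063), and Cox8b passed in 9 of 9 fits that left out 1 library.

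Ndufa4l2, the relative of Ndufa4 that hypoxia induces, lies at chr10:127509274-127517154 and overlaps Shmt2. It had 60.0, 74.4 and 71.8 TPM with long-term PM2.5, 91.5, 72.2 and 83.8 TPM with short-term PM2.5 and 122, 102 and 103 TPM with PBS. The long-term libraries were all below the PBS libraries and overlapped the short-term ones. The log2 difference between long-term PM2.5 and PBS was -0.66 ± 0.13 (limma adjusted p = 0.0098), and it passed in 7 of 9 fits that left out 1 library, and lost the call without long-term replicate 1 (adjusted p = 0.054) or PBS replicate 1 (adjusted p = 0.058). No source used here states whether reads were counted by strand, so reads of overlapping genes cannot be told apart, and 31 of the 92 genes overlap another gene.

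Cox6b2, the testis form of subunit 6b, lies at chr7:4751792-4753094 and moved the other way. It had 29.6, 24.2 and 33.8 TPM with long-term PM2.5, 21.1, 14.6 and 17.1 TPM with short-term PM2.5 and 14.9, 21.8 and 10.9 TPM with PBS. The long-term libraries were the highest, and PBS replicate 2 came closest to them. The log2 difference from PBS was 0.88 ± 0.24 (limma adjusted p = 0.037). It lost the call in the 6 fits that left out any long-term library, short-term replicate 3 or PBS replicate 1 or 3, with an adjusted p of up to 0.14.

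The other restricted isoforms did not pass. Cox7a1, the muscle form of subunit 7a, had 25.5, 32.6 and 25.3 TPM with long-term PM2.5, 53.0, 34.8 and 26.5 TPM with short-term PM2.5 and 62.1, 37.8 and 49.7 TPM with PBS. Its long-term libraries lay below its PBS libraries, with a log2 difference of -0.80 ± 0.25 (limma adjusted p = 0.068). Cox4i2, the lung form of subunit 4, had 149, 179 and 176 TPM with long-term PM2.5, 308, 173 and 264 TPM with short-term PM2.5 and 285, 220 and 236 TPM with PBS. Its log2 difference between long-term PM2.5 and PBS was -0.55 ± 0.20 (limma adjusted p = 0.11), again with no overlap between these groups, as for 43.2% of all tested genes. Both passed after the correction for transcript length and GC content described below, Cox7a1 at -0.85 (adjusted p = 0.016) and Cox4i2 at -0.62 (adjusted p = 0.010). Cox6a2, the muscle form of subunit 6a, had 102, 157 and 113 TPM with long-term PM2.5, against 161, 144 and 124 TPM with PBS, and the groups overlapped (log2 difference -0.22 ± 0.24, limma adjusted p = 0.73).

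None of their common partners passed. Cox8a had 1006, 864 and 836 TPM with long-term PM2.5, against 740, 849 and 759 TPM with PBS, a log2 difference of 0.20 ± 0.11 (limma adjusted p = 0.34). Cox4i1 had 631, 594 and 609 TPM with long-term PM2.5, against 587, 504 and 532 TPM with PBS (0.18 ± 0.13, adjusted p = 0.51). Cox6a1, Cox6b1, Cox7a2 and Ndufa4 differed by -0.08 to 0.22, with adjusted p of 0.48 or more. A p that misses the threshold does not show that these genes were the same.

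Set against its partner, each restricted form took a share of the pair's TPM that avoids the overall scale of a library. Cox4i2 made up 19.1, 23.1 and 22.4% of Cox4i2 plus Cox4i1 with long-term PM2.5, 25.2, 19.3 and 28.1% with short-term PM2.5 and 32.7, 30.4 and 30.7% with PBS. Ndufa4l2 made up 16.2, 21.5 and 21.3% of Ndufa4l2 plus Ndufa4 with long-term PM2.5, 23.4, 14.9 and 18.7% with short-term PM2.5 and 30.6, 25.7 and 27.5% with PBS. For both pairs, every long-term and every short-term library was below every PBS library.

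Cox8b made up 1.87, 2.79 and 3.24% of Cox8b plus Cox8a with long-term PM2.5, 3.61, 2.61 and 2.90% with short-term PM2.5 and 5.51, 4.64 and 5.82% with PBS. Again the PBS libraries were the highest. Cox7a1 made up 15.3, 21.8 and 18.4% of Cox7a1 plus Cox7a2 with long-term PM2.5, 25.7, 13.9 and 14.3% with short-term PM2.5 and 35.8, 23.6 and 29.6% with PBS, where short-term replicate 1 reached into the PBS range. Cox6a2 made up 11.3, 14.7 and 11.3% of Cox6a2 plus Cox6a1 with long-term PM2.5, 7.09, 6.46 and 7.90% with short-term PM2.5 and 14.7, 14.5 and 11.5% with PBS, so the short-term libraries stood apart and the other groups overlapped. Cox6b2 made up 4.43, 3.79 and 5.26% of Cox6b2 plus Cox6b1 with long-term PM2.5, 1.80, 1.75 and 2.09% with short-term PM2.5 and 2.54, 4.32 and 1.93% with PBS. These shares have no test across all genes, and an exact permutation test of 3 against 3 libraries can give no two-sided p below 0.1.

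**Figure D2:**
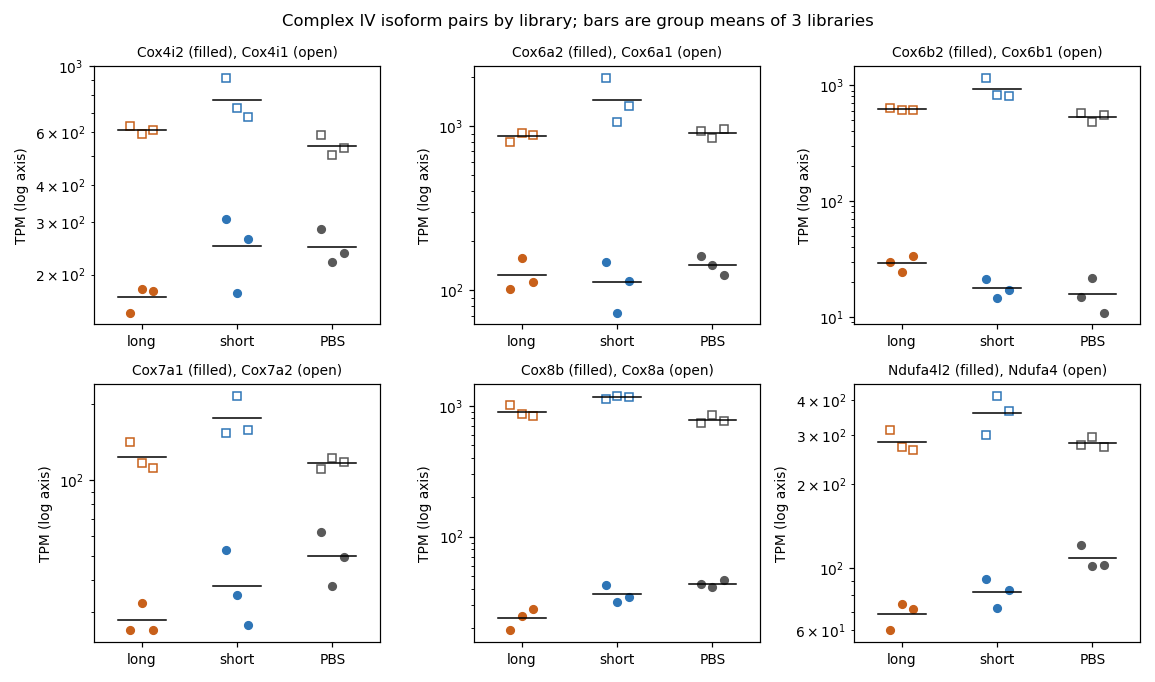
TPM on log axes of 6 complex IV isoform pairs in each library, with long-term PM2.5, short-term PM2.5 and PBS from left to right and bars at the group means (n = 3). Filled circles show the tissue-restricted form and open squares the common form. Long-term values of Cox8b lie between 19.2 and 28.0 TPM, below all PBS values, while those of Cox8a lie between 836 and 1006 TPM.

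Markers of heart muscle were set beside the muscle isoforms, of which Cox8b alone passed with long-term PM2.5. Over all tested genes 9.51% rose and 1.72% fell. Of 14 tested cardiac muscle markers, none rose and 6 fell with long-term PM2.5, among them Sln, which encodes a small inhibitor of the calcium pump of atrial and skeletal muscle (log2 difference -1.0 ± 0.22, limma adjusted p = 0.015), and Tnnc1, troponin C of heart and slow muscle (-0.84 ± 0.19, adjusted p = 0.018). The count was 0 without long-term replicate 1 or PBS replicate 1 or 3, 3 without long-term or short-term replicate 3 and 10 without short-term replicate 1. The summed TPM of the list was 695 to 940 with long-term PM2.5, 743 to 1102 with short-term PM2.5 and 1096 to 1576 with PBS. Myl2, the light chain of ventricular muscle, was at 0 in every PBS library, with 0.25 to 0.50 TPM in the long-term ones, whereas the atrial light chain genes Myl7 and Myl4 had 199 to 286 and 176 to 260 TPM with PBS. Of 13 tested pericyte and smooth muscle markers 1 fell, Pdgfrb, the receptor that marks pericytes (-0.41 ± 0.11, adjusted p = 0.031), with 0 without any long-term library or PBS replicate 1 or 3, 5 without short-term replicate 1 and 4 without short-term replicate 2, and their summed TPM was 732 to 808 with long-term PM2.5, 903 to 939 with short-term PM2.5 and 864 to 1002 with PBS. Of 5 tested skeletal muscle markers 1 rose, and none did in the 7 fits that left out a long-term or PBS library or short-term replicate 3. Their summed TPM was 17.3 to 20.9 with long-term PM2.5 and 18.2 to 27.3 with PBS. Of 10 tested markers of brown and white fat, which also hold Cox7a1 and Cox8b, 1 rose and none fell, and their summed TPM was 101 to 141 with long-term PM2.5, 61.3 to 133 with short-term PM2.5 and 106 to 275 with PBS. The part of these cells in the isoform values was not tested.

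Markers of other cells also moved, where 9.51% of all tested genes rose and 1.72% fell. Of 15 tested markers of multiciliated airway cells 13 rose and none fell with long-term PM2.5, among them Foxj1, the transcription factor of motile cilia (log2 difference 1.47), and Deup1, which builds centrioles in these cells (2.85). Of 14 tested alveolar macrophage markers 9 rose and none fell, among them the lysosomal protein gene Cd68 (1.93). Of 9 tested red cell markers 5 fell, or 3 without PBS replicate 2. The part of these cells in the OXPHOS values was not tested.

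In complex II no gene passed, and all 4 differences were above 0. Sdhd, a membrane anchor of succinate dehydrogenase, had 83.6, 73.4 and 75.9 TPM with long-term PM2.5, 46.6, 82.6 and 63.1 TPM with short-term PM2.5 and 55.6, 57.2 and 51.7 TPM with PBS. Its long-term libraries were all above its PBS libraries, with a log2 difference of 0.49 ± 0.18 (limma adjusted p = 0.12). These groups did not overlap for 43.2% of all tested genes. Sdhc, the other membrane anchor, had 135, 124 and 124 TPM with long-term PM2.5, against 88.3, 101 and 103 TPM with PBS (0.39 ± 0.12, adjusted p = 0.067). The catalytic subunits Sdha and Sdhb differed by 0.04 and 0.05, with adjusted p of 0.96 and 0.89.

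Lists of genes that surround the respiratory chain held few changes with long-term PM2.5, where 9.51% of all tested genes rose and 1.72% fell. Of 78 tested genes of the mitochondrial ribosome, which translates the mitochondrial subunits, 1 rose (Mrpl39, log2 difference 0.46 ± 0.10, limma adjusted p = 0.017) and none fell. None of 33 assembly factors of complexes II to V, of 8 other complex I assembly factors, of 22 genes of the citric acid cycle and pyruvate dehydrogenase, of 15 regulators of mitochondrial biogenesis or of 16 hypoxia response genes passed. At an unadjusted p under 0.05 these 5 lists had 1, 0, 0, 1 and 5 genes, against 22.1% of all tested genes. The 5 hypoxia response genes were 31.25% of their list. In that list 2 rose and 3 fell without short-term replicate 1, and 1 rose and 1 fell without short-term replicate 2. Its summed TPM was 707 to 769 with long-term PM2.5 and 875 to 969 with PBS. In the list of cytochrome c, coenzyme Q and carriers, 1 of 24 rose: Coq8b, needed for coenzyme Q synthesis, had 46.3, 49.8 and 56.3 TPM with long-term PM2.5, 53.0, 40.1 and 44.4 TPM with short-term PM2.5 and 26.6, 28.8 and 31.1 TPM with PBS (0.79 ± 0.14, adjusted p = 0.0041). Both PM2.5 groups lay above PBS. The mitochondrial ribosome count was 0 without any long-term library or PBS replicate 1 or 3, and 3 without short-term replicate 1, and the coenzyme Q list had 5 risen genes without short-term replicate 1, 3 without short-term replicate 2 and 2 without PBS replicate 3.

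Glycolysis makes ATP outside the mitochondrion. Of 19 tested glycolysis genes 3 rose (15.8%) and none fell with long-term PM2.5, against 9.51% risen and 1.72% fallen over all tested genes. Slc16a3, the lactate exporter MCT4, had 23.1, 20.4 and 20.2 TPM with long-term PM2.5, 24.7, 21.8 and 21.0 TPM with short-term PM2.5 and 6.91, 8.57 and 11.7 TPM with PBS, a log2 difference of 1.17 ± 0.18 between long-term PM2.5 and PBS (limma adjusted p = 0.0019). Ldha, which makes lactate from pyruvate, had 355, 299 and 310 TPM with long-term PM2.5, 365, 448 and 395 TPM with short-term PM2.5 and 208, 234 and 217 TPM with PBS (0.54 ± 0.12, adjusted p = 0.012). Neither gene's PM2.5 libraries overlapped the PBS libraries. The count was 1 without long-term replicate 1 or PBS replicate 1, 7 without short-term replicate 1 and 5 without short-term replicate 2, and Ldha lost the call in the first 2 of these fits (adjusted p = 0.068 and 0.066). Of 12 mitochondrial antioxidant genes 1 rose (8.33%, near the share of all tested genes), Gsr, glutathione reductase (0.63 ± 0.18, adjusted p = 0.047). In the mitochondrial stress list of 14 genes, the stress hormone gene Gdf15 rose (0.92 ± 0.26, adjusted p = 0.047) and Ddit3, the stress transcription factor CHOP, fell (-0.53 ± 0.15, adjusted p = 0.049). Gsr, Gdf15 and Ddit3 each lost the call in the 7 fits that left out a long-term or PBS library or short-term replicate 3, with adjusted p of up to 0.17, 0.19 and 0.22.

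A single instillation was compared with PBS next. Of the 92 OXPHOS genes, 59 rose and 2 fell (Cox7a2l and Ndufa4l2) with short-term PM2.5, while over all tested genes 11.7% rose and 40.3% fell. The count of risen genes was 60 without short-term replicate 1 and 43 to 60 over all fits that left out 1 library, and that of fallen genes was 5 without short-term replicate 1, 3 without short-term replicate 2, 1 without short-term replicate 3 and 0 without PBS replicate 1 or 3. The median log2 difference of the 92 genes was 0.44, beside -0.34 over all tested genes. Short-term and PBS libraries did not overlap for 69.6% of the 92 genes, against 60.3% of all tested genes. This comparison shares its PBS libraries with the one above.

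Within complex I, 5 of 7 core subunits and 22 of 30 accessory subunits rose and none fell, with median log2 differences of 0.35 and 0.47. Ndufs8, a core subunit that carries iron-sulfur clusters, lies at chr19:3908863-3912774. It had 299, 160 and 190 TPM with short-term PM2.5, against 115, 115 and 110 TPM with PBS (0.88 ± 0.19, limma adjusted p = 0.0042), with replicate 1 far above the other 2. Ndufv2 and Ndufs7, also core subunits with iron-sulfur clusters, rose by 0.53 and 0.54, and stood at 0.19 and -0.17 after the correction described below. Among accessory subunits, Ndufb2, Ndufs6 and Ndufa5 rose by 0.75, 0.75 and 0.76 and had the smallest adjusted p, between 8.7e-04 and 0.0012. Ndufs1, the largest core subunit, had 13.3, 33.0 and 20.3 TPM with short-term PM2.5, against 23.0, 23.4 and 21.1 TPM with PBS, so that its short-term libraries lay on both sides of PBS. Of the 8 Ndufaf factors 1 rose, Ndufaf8 (0.61 ± 0.18, limma adjusted p = 0.017, and 0.065 without PBS replicate 2), and the median was 0.17.

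Complex II was split. Sdhc rose, with 138, 176 and 147 TPM with short-term PM2.5, against 88.3, 101 and 103 TPM with PBS (log2 difference 0.65 ± 0.12, limma adjusted p = 0.0020), and Sdhb, its iron-sulfur subunit, rose by 0.36 ± 0.11 (adjusted p = 0.022, with 0.055 without PBS replicate 1 and 0.076 without PBS replicate 2). Sdha, the flavoprotein subunit, had 35.3, 70.0 and 49.2 TPM with short-term PM2.5, against 72.7, 66.7 and 69.2 TPM with PBS (-0.48 ± 0.20, adjusted p = 0.067), and Sdhd differed by 0.19 ± 0.18 (adjusted p = 0.40). Sdha has a transcript of 2900 bases and Sdhb one of 1142 bases.

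In complex III, 5 of 8 genes rose and none fell, with a median of 0.44. Uqcrq, a small subunit near the ubiquinone-binding part, lies at chr11:53427922-53430831 and overlaps Gdf9. It had 86.2, 84.8 and 84.2 TPM with long-term PM2.5, 170, 148 and 134 TPM with short-term PM2.5 and 75.5, 75.4 and 72.0 TPM with PBS. The short-term libraries were far above the other 6, with a log2 difference from PBS of 1.01 ± 0.11 (limma adjusted p = 2.0e-04). Uqcrb rose by 0.63 and Uqcrh, the hinge protein, by 0.42, whereas the core protein Uqcrc2 had 38.8, 84.6 and 55.0 TPM with short-term PM2.5, against 64.3, 65.3 and 61.7 TPM with PBS.

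Complex IV divided by isoform. Of its 12 common subunits 11 rose, with a median log2 difference of 0.57 over the 12, and 1 fell. Cox6b1 rose by 0.77 ± 0.15 (limma adjusted p = 0.0023), Cox5a by 0.67 ± 0.11 (adjusted p = 0.0012) and Cox7c by 0.55 ± 0.11 (adjusted p = 0.0025), and after the correction they stood at 0.068, 0.039 and -0.084. The gene that fell was Cox7a2l. It had 245, 235 and 218 TPM with long-term PM2.5, 161, 184 and 176 TPM with short-term PM2.5 and 226, 212 and 214 TPM with PBS, and all short-term libraries were below the other 6 (-0.32 ± 0.10 against PBS, adjusted p = 0.021, with 0.079 without PBS replicate 1 and 0.052 without PBS replicate 3). With median-ratio scaling, which moves the median of all genes from -0.34 to -0.05, Cox7a2l differed by 0.03.

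The 6 restricted isoforms had a median of -0.33 in the same comparison, and none rose. Ndufa4l2 fell by 0.40 on the log2 scale (SE 0.13, limma adjusted p = 0.030), and lost the call without short-term replicate 2 or 3 or PBS replicate 1 or 3, with adjusted p of 0.067, 0.061, 0.12 and 0.054. Cox7a1 differed by -0.41 ± 0.25, Cox6a2 by -0.40 ± 0.24, Cox8b by -0.27 ± 0.16, Cox4i2 by -0.02 ± 0.20 and Cox6b2 by 0.18 ± 0.24, with adjusted p of 0.17 or more. With median-ratio scaling Cox8b differed by 0.07 and Cox4i2 by 0.33. Of the 14 tested cardiac muscle markers 9 fell and none rose with short-term PM2.5, and of 13 pericyte and smooth muscle markers 7 fell and 2 rose. These counts stand beside 11.7% risen and 40.3% fallen over all tested genes. Their part in these values was not tested.

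Complex V had the highest median, 0.61, with 13 of 17 genes risen and none fallen. Atp5e, the epsilon subunit of the rotor stalk, lies at chr2:174461075-174464101. It had 919, 629 and 578 TPM with short-term PM2.5, against 380, 310 and 327 TPM with PBS (1.04 ± 0.17, limma adjusted p = 0.0011), and it had the largest log2 difference of the 92 genes. Atp5g1, at chr11:96072793-96075694, is 1 of 3 genes that encode the same mature subunit c, the proton-carrying ring. It had 190, 164 and 161 TPM with long-term PM2.5, 305, 304 and 277 TPM with short-term PM2.5 and 154, 156 and 148 TPM with PBS. The short-term libraries stood clear of the rest, at a log2 difference of 0.95 ± 0.10 from PBS (adjusted p = 2.0e-04).

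Of the other subunit c genes, Atp5g2 rose by 0.61 ± 0.10 (limma adjusted p = 0.0013) and Atp5g3 by 0.38 ± 0.12 (adjusted p = 0.022, and 0.079 without PBS replicate 2). Atp5g1 made up 20.7, 18.9 and 19.7% of the TPM of the 3 genes with long-term PM2.5, 24.5, 24.8 and 24.8% with short-term PM2.5 and 18.9, 20.8 and 18.4% with PBS. The genes of the catalytic head, with transcripts of 2471 bases (Atp5a1) and 1916 bases (Atp5b), did not pass. Atp5a1, the alpha subunit, had 193, 337 and 248 TPM with short-term PM2.5, against 270, 263 and 266 TPM with PBS. Atp5b, the beta subunit, had 425, 589 and 486 TPM with short-term PM2.5, against 480, 465 and 474 TPM with PBS. In both, the short-term libraries lay on both sides of PBS.

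Length was then set beside these values. The 92 genes have a transcript length, as the median over curated transcripts, of 445 bases at their 10th percentile and 1896 at their 90th, and 3693 other tested genes fall between these lengths. These others had a median of 1345 bases, against 775.5 for the OXPHOS genes, so the sets were not matched within that range. With short-term PM2.5 the 3693 genes had a median log2 difference of 0.10 from PBS, with 995 higher and 512 lower, so that the OXPHOS genes were 0.35 above them. Between libraries this difference was 0.45, 0.33 and 0.27 in short-term replicates 1, 2 and 3, against 0.04, 0.01 and -0.06 in the PBS libraries. It was 0.22 when only genes between the 25th and 75th percentile of the OXPHOS lengths were used, 0.25 against other genes with a mean of at least 20 TPM, 0.27 without short-term replicate 1 and 0.10 after quantile normalization. With long-term PM2.5 the same difference was -0.02, and -0.01, -0.02 and -0.05 in the 3 long-term libraries.

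By length class, the 12 OXPHOS genes of up to 500 bases had a median short-term difference of 0.69, against 0.42 for 85 other genes of that length. The 30 of 500 to 750 bases had 0.57, against 0.37 for 315 others, and the 17 of 1000 to 1500 bases had 0.34, against 0.11 for 1429 others. The 11 of 1500 to 2500 bases had 0.23, against -0.14 for 3424 others, and the 6 longer ones 0.08, against -0.57 for 7898 others. In both sets the median was smaller in each longer class shown, and the OXPHOS genes lay above the others in each of these classes. The gap was 0.19 to 0.27 in classes of up to 1500 bases and 0.37 to 0.65 in longer ones. Across 91 OXPHOS genes Spearman's rho of length and short-term difference was -0.43, against -0.55 across 13701 other genes, values from the same libraries given as a description. For long-term PM2.5 they were 0.05 and -0.19.

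**Figure D3:**
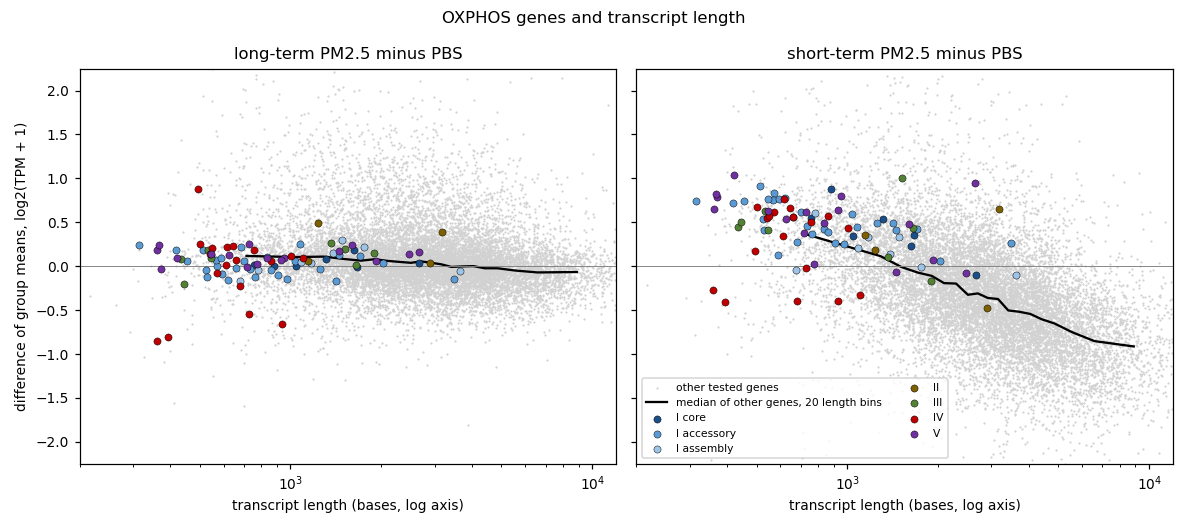
Difference of group means in log2(TPM + 1) from PBS for long-term (left) and short-term PM2.5 (right) against transcript length on a log axis, with OXPHOS genes coloured by complex, other tested genes in grey and their median over 20 length bins as a line. The line is nearly flat for long-term PM2.5 and falls from above 0 to below 0 for short-term PM2.5, where most OXPHOS genes sit at its short end and above it.

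The length and GC trend of each library was then subtracted, and most short-term increases lost their call. Of 91 OXPHOS genes with a known length, 4 rose (Sdhc, Uqcrq, Atp5g1 and Ndufab1) and 14 fell. These are 4.40% and 15.4% of them, against 7.72% risen and 41.8% fallen over all tested genes, and the median log2 difference from PBS was -0.13, beside -0.33 over all tested genes. Sdhc stood at 0.79 (adjusted p = 3.9e-04), Uqcrq at 0.68 (adjusted p = 7.4e-04) and Atp5g1 at 0.91 (adjusted p = 1.8e-04), in the same limma test. Those 3 genes have long curated transcripts for this set, with medians of 3171, 1521 and 2655.5 bases, and the 2 extremes of Atp5g1 are 596 and 4715 bases. With the shortest curated transcript in place of the median, Atp5g1 stood at 0.34 (adjusted p = 0.042), Sdhc at 0.81 and Uqcrq at 0.75. Atp5e stood at 0.20 after the correction and Ndufs8 at 0.19, with adjusted p of 0.22 and 0.15.

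All 6 restricted isoforms were among the 14 that fell after the correction, with a median of -1.09, and 5 of 6 fell with the shortest transcript. Of the 3693 other genes of like length 1586 also fell (42.9%), with a median of -0.35. Cox7a1 stood at -1.25, Cox6a2 at -1.13, Cox8b at -1.12, Ndufa4l2 at -1.05, Cox4i2 at -0.77 and Cox6b2 at -0.64, with limma adjusted p between 4.0e-04 and 0.027. Of the 12 common complex IV subunits only Cox7a2l fell (-0.80, adjusted p = 7.0e-04). The cardiac muscle list had 13 of 14 genes lower after the correction (median -1.07), and how much of the isoform values came with it was not tested. For long-term PM2.5 the correction left 1 gene higher (Cox6b2) and 4 lower (Cox8b, Ndufa4l2, Cox7a1 and Cox4i2), against 11.0% higher and 2.14% lower over all tested genes.

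**Figure D4:**
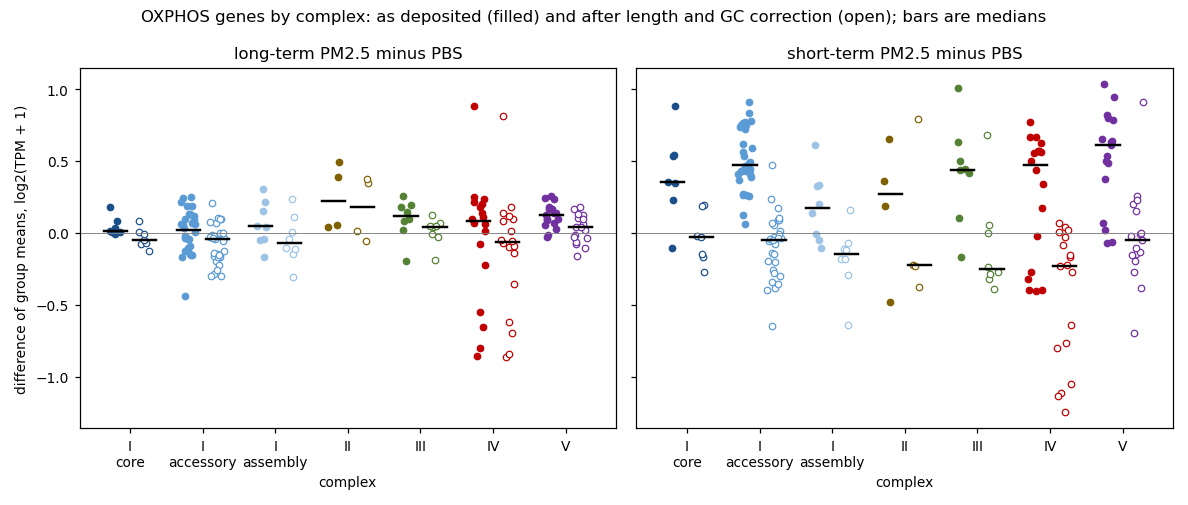
Difference from PBS in log2(TPM + 1) of each OXPHOS gene, by complex, for long-term (left) and short-term PM2.5 (right). Filled points are values as deposited, open points are values after the length and GC correction and bars are medians. For short-term PM2.5 the median of complex V is 0.61 as deposited and -0.05 after the correction, and the low open points of complex IV are the 6 restricted isoforms and Cox7a2l.

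The mitochondrial ribosome, cytosolic ribosome and proteasome lists also held many risen genes in the short-term libraries. Their median transcripts were 1253, 791 and 1512 bases. Over all tested genes 11.7% rose and 40.3% fell, or 7.72% and 41.8% after the correction. Of 78 mitochondrial ribosome genes 39 rose and none fell, with a median log2 difference of 0.36 and, after the correction, 16 higher and 7 lower. Mrps18b had 60.7, 53.4 and 47.7 TPM with short-term PM2.5, against 25.4, 24.0 and 22.9 TPM with PBS (1.13 ± 0.14, limma adjusted p = 3.2e-04). Of 81 cytosolic ribosome genes 56 rose and 1 fell, with a median of 0.47 and, after the correction, 6 higher and 8 lower. The count risen was 33 without PBS replicate 2. Rps2 had the smallest adjusted p of them (1.30 ± 0.14, adjusted p = 2.0e-04). Of 37 proteasome genes 18 rose and none fell, with a median of 0.43 and, after the correction, 5 higher and 2 lower. Psmb5, a catalytic subunit, had 0.91 ± 0.11 as deposited and 0.23 after the correction, and 3 of the list fell without short-term replicate 2.

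Counts were mixed in the next lists, whose median transcripts were, in order, 1673, 2245.5, 1766 and 2550.25 bases. They stand beside 11.7% risen and 40.3% fallen over all tested genes, or 7.72% and 41.8% after the correction. Of 33 assembly factors of complexes II to V, 8 rose and 1 fell, with a median log2 difference of -0.05 and, after the correction, 3 higher and 9 lower. Pet100 and Coa3, which help assemble complex IV, rose by 0.94 and 0.63, and Atpaf1, a chaperone of complex V, fell (-0.72 ± 0.20, limma adjusted p = 0.014), and without short-term replicate 2 there were 8 that fell. Of 8 other complex I assembly factors 1 rose and none fell, with 0 and 1 after the correction. The 1 was lost without long-term replicate 2, short-term replicate 2 or 3 or PBS replicate 1 or 3, and 2 fell without short-term replicate 2. Of 24 genes of cytochrome c, coenzyme Q and carriers 7 rose and 3 fell, or 5 and 8 after the correction, with Coq7 at 1.09 (0.50 after it) and Coq8a at -0.90 (-0.74 after it), and 4 rose without PBS replicate 1 or 2 and 7 fell without short-term replicate 2. Of 22 genes of the citric acid cycle and pyruvate dehydrogenase none rose and 5 fell, or 7 after the correction, beside 40.3% and 41.8% of all tested genes. Among them were Pdk2, a kinase that switches pyruvate dehydrogenase off (-0.79), and Pdp1, a phosphatase that switches it on (-0.83). Without short-term replicate 2 there were 13 that fell, and without any of the PBS libraries 3.

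Of 15 regulators of mitochondrial biogenesis, none rose and 6 fell with short-term PM2.5, a share near the 40.3% of all tested genes that fell. Yy1, the factor whose motif was searched above, had 83.2, 98.4 and 79.1 TPM with long-term PM2.5, 18.8, 38.8 and 39.7 TPM with short-term PM2.5 and 121, 90.7 and 134 TPM with PBS. Its short-term libraries were far below the other 6, at a log2 difference of -1.85 ± 0.26 from PBS (limma adjusted p = 5.8e-04) and -1.38 after the correction (adjusted p = 6.7e-04). Polg, the mitochondrial DNA polymerase, fell by 1.12 on the log2 scale. The coactivator gene Ppargc1a was low throughout, with 1.55, 1.12 and 1.53 TPM with long-term PM2.5, 0.37, 0.42 and 0.36 TPM with short-term PM2.5 and 0.83, 0.91 and 0.98 TPM with PBS.

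Of 19 glycolysis genes, with a median transcript of 2816 bases, 8 rose and 1 fell with short-term PM2.5, and the counts after the correction were also 8 and 1. Over all tested genes 11.7% rose and 40.3% fell, or 7.72% and 41.8% after the correction. Eno1, enolase, had 279, 176 and 188 TPM with short-term PM2.5, against 81.7, 80.6 and 88.4 TPM with PBS (1.32 ± 0.16, limma adjusted p = 3.0e-04, and 1.08 after the correction). Gapdh, which feeds NADH from glycolysis, rose by 1.06 and by 0.55 after the correction, and Pfkm, the muscle phosphofructokinase, fell (-0.60 ± 0.14, adjusted p = 0.0058). Of 16 hypoxia response genes 2 rose and 7 fell, shares near those of all tested genes (11.7% and 40.3%), with Vegfa at -1.19 ± 0.16 and Higd1a, a complex IV partner, at 0.48 ± 0.15, which lost the call without PBS replicate 2 or 3. The risen count was 1 without short-term replicate 2 or PBS replicate 1 or 3 and 0 without PBS replicate 2. Of 12 mitochondrial antioxidant genes 6 rose and 1 fell, or 1 and 2 after the correction, and none fell without any of the PBS libraries. Sod2, the manganese superoxide dismutase of the matrix, had 45.2, 41.9 and 41.5 TPM with long-term PM2.5, 93.5, 104 and 83.7 TPM with short-term PM2.5 and 34.4, 34.9 and 33.5 TPM with PBS (short-term difference from PBS 1.42 ± 0.11, adjusted p = 3.1e-05), and it stood at 1.95 after the correction.

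The 2 exposures were last compared with each other. Of the 92 OXPHOS genes, 2 were higher (Cox7a2l and Cox6b2) and 58 lower with long-term than with short-term PM2.5, against 43.4% higher and 7.08% lower over all tested genes. Without short-term replicate 2 there were 9 higher, and without long-term replicate 3 there were 36 lower. Their median log2 difference was -0.41, beside 0.41 over all tested genes, and they were 0.42 below other genes of like length. By length class this gap was -0.14 to -0.28 up to 1500 bases and -0.28 to -0.70 in longer classes. After the length and GC correction 6 were higher (6.59%) and 4 lower (4.40%), with a median of 0.11, against 44.5% higher and 3.47% lower over all tested genes, with a median of 0.38. The 4 lower ones were Uqcrq (-0.61), Atp5g1 (-0.78), Sdhc (-0.41) and Ndufab1 (-0.63), and the higher ones included Cox6b2 (1.46), Cox6a2 (0.77) and Cox7a2l (0.75). As deposited, Cox7a2l was higher with long-term PM2.5 by 0.42 ± 0.10 (limma adjusted p = 0.0076) and Cox6b2 by 0.70 ± 0.24 (adjusted p = 0.031), and Cox6b2 lost the call without long-term replicate 1 or 3 or short-term replicate 2 or 3, with adjusted p of up to 0.11. Cox8b was lower with long-term PM2.5 (-0.58 ± 0.16, adjusted p = 0.014) but stood at 0.25 after the correction (adjusted p = 0.22).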

How the data were processed

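Whole-lung mRNA was purified with oligo(dT) beads, made into libraries that underwent DSN treatment (duplex-specific nuclease) and sequenced on DNBSEQ, per the labels. The authors deposited TPM values for 18875 genes in 9 libraries. The tools in the submitters' processing notes are Bowtie2, HISAT2, DESeq2 and RSEM, without roles or versions, and GRCm38.p6 was named for 8 of 9 samples. Column sums differ by at most 1.09 TPM, so depth is unknown and no counting error could be given.

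The 13991 genes that reached 1 TPM in 3 or more libraries were put on the log2(TPM + 1) scale and tested in limma 3.58.1 (R 4.3.3) over 3 groups, with an intensity trend and 6 residual degrees of freedom. Fold changes are differences of group means on this scale, which understates changes of low genes. Two-sided p-values were adjusted by Benjamini-Hochberg across those genes, with a threshold of 0.05. Transcript lengths are medians over curated transcripts of GENCODE M21. The correction subtracted from each library natural splines in length and GC content (5 degrees of freedom each) fitted to its difference from the mean library, and left out 199 genes of unknown length. The mean of that difference over the fitted genes was added back, so the mean shift of each library was kept. Positions and promoters are from RefSeq on GRCm38.p6, where 18818 genes (99.7%) matched by ID. Python 3.11.15 made summaries and figures.

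Named are, per comparison and class, up to 3 changed genes in each direction with the smallest adjusted p and no overlap between groups, always the Sdh genes and the isoform sets, and up to 2 genes per direction in each list. Genes outside this rule (Ndufs1, Uqcrc2, Atp5a1, Atp5b, Ndufb4c, Ndufab1, Myl2, Myl4 and Myl7) were named after their values were seen, and not all genes the rule allows are printed. Members and lists were chosen with earlier results of these data known. On simulated data with a length trend added to the short-term libraries, the tested scripts made false calls that were 95.1% of calls for short-term PM2.5 against PBS before the correction and 4.29% after it. The added trend was the same in each short-term library and used the lengths that the correction subtracts. These shares therefore check the scripts alone and do not estimate how many calls in the deposited values are false. Alternatives are given at the end.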

Additional observations from a re-analysis of the deposited data

How the results depend on the processing

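With long-term PM2.5 against PBS, the count of risen OXPHOS genes was 1 as reported, 0 with no filter on low values, 3 with quantile normalization, 2 after the correction with the shortest transcript and 5 when these 2 groups were fitted alone, and 0 to 3 over the fits that left out 1 library. The count of fallen genes was 2 as reported, 4 after each form of the length and GC correction (with or without the OXPHOS genes or the replicate block), 4 with the 2 groups alone and 1 to 4 over the fits that left out 1 library. Their median minus that of like-length genes was -0.022 as reported, 0.031 with quantile normalization and -0.038 to 0.0089 over the fits that left out 1 library.

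With short-term PM2.5 against PBS, the count of risen genes was 59 as reported, 4 after the correction with or without the OXPHOS genes, 7 with the shortest transcript, 3 after the correction with the replicate block and 43 to 60 over the fits that left out 1 library. The count of fallen genes was 2 as reported, 0 with median-ratio scaling, 1 with quantile normalization, 14 after the correction with or without the OXPHOS genes, 10 with the shortest transcript, 12 after the correction with the replicate block, 0 with the 2 groups alone and 0 to 5 over the fits that left out 1 library. Median-ratio scaling gave 77 risen genes and quantile normalization 59. The median minus that of like-length genes was 0.35 as reported, 0.099 with quantile normalization, 0.22 after the correction, 0.47 with the longest transcript, 0.22 between the 25th and 75th percentile, 0.25 against genes of at least 20 TPM and 0.27 to 0.39 over the fits that left out 1 library.

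For the long-term against the short-term libraries, the count of higher genes was 2 as reported, 0 with median-ratio scaling, 1 with quantile normalization, 6 after the correction (with or without the OXPHOS genes or the replicate block), 5 with the shortest transcript and 1 to 9 over the fits that left out 1 library. The count of lower genes was 58 as reported, 4 after the correction (with or without the OXPHOS genes or the replicate block), 6 with the shortest transcript and 36 to 60 over the fits that left out 1 library. The median minus that of like-length genes was -0.42 as reported, -0.095 with quantile normalization, -0.24 after the correction, -0.54 with the longest transcript, -0.31 between the 25th and 75th percentile, -0.29 against genes of at least 20 TPM and -0.46 to -0.35 over the fits that left out 1 library.

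Whether the replicate numbers pair the libraries could not be decided with 3 libraries a group. Deviations of same-numbered libraries from their group means correlated at -0.29 to 0.26, against -0.27 to 0.34 for libraries of different numbers. With the replicate block alone, 0 OXPHOS genes rose and 2 fell with long-term PM2.5 against PBS, 55 rose and 1 fell with short-term PM2.5 against PBS, and 1 was higher and 56 lower with long-term than with short-term PM2.5.

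For long-term PM2.5 against PBS, the correction, with or without the replicate block, turned the direction of Sdhb -0.059, Cox7a2 -0.073, Cox7a2l -0.053, Cox7b -0.054 and Ndufa4 -0.14 (log2 difference). Fitted without the OXPHOS genes it gave Sdhb -0.061, Cox7a2 -0.085, Cox7a2l -0.056, Cox7b -0.058 and Ndufa4 -0.15. With the shortest transcript it gave Sdhb -0.045, Cox7a2 -0.062, Cox7a2l -0.037, Cox7b -0.034 and Ndufa4 -0.12. Under median-ratio scaling Ndufa4 -0.028 was reversed. Under quantile normalization Ndufa4 -0.0077 was reversed. For short-term PM2.5 against PBS, the correction, with or without the replicate block, turned the direction of Sdhb -0.22, Sdhd -0.23, Cox4i1 -0.23, Cox6a1 -0.17, Cox6b2 -0.64, Cox7a2 -0.15, Cox7b -0.026, Cox8a -0.23, Ndufa4 -0.27, Atp5g2 -0.13, Atp5g3 -0.27, Ndufs7 -0.17, Ndufb2 -0.076, Ndufs6 -0.045, Ndufaf8 -0.12, Uqcrh -0.27, Cox7c -0.084, Coa3 -0.045 and Hspe1 -0.069 (log2 difference). Fitted without the OXPHOS genes it gave Sdhb -0.23, Cox6a1 -0.16, Cox7b -0.028, Cox8a -0.22, Ndufb2 -0.071, Ndufs6 -0.043, Uqcrh -0.26, Cox7c -0.079, Coa3 -0.046 and Hspe1 -0.068 and otherwise the same values. With the shortest transcript it gave Sdhb -0.16, Sdhd -0.15, Cox4i1 -0.15, Cox6a1 -0.055, Cox6b2 -0.50, Cox7a2 -0.041, Cox8a -0.11, Ndufa4 -0.13, Atp5g2 -0.040, Atp5g3 -0.16, Ndufs7 -0.092, Ndufaf8 -0.028 and Uqcrh -0.13. Over all tested genes the median short-term difference was -0.33 after the correction and -0.32 with the shortest transcript. A turned value above these medians still lay above the middle of all tested genes. Under median-ratio scaling Cox4i2 0.33, Cox7a2l 0.027 and Cox8b 0.072 were reversed. Between long-term and short-term PM2.5, the correction, with or without the replicate block, turned the direction of Cox8b 0.25 and Cox4i2 0.15 (log2 difference). Fitted without the OXPHOS genes it gave Cox8b 0.22 and Cox4i2 0.14. With the shortest transcript it gave Cox8b 0.076 and Cox4i2 0.063. Under median-ratio scaling Sdhd -0.077 was reversed. Over the 9 fits that left out 1 library, differences near 0 changed sign, with ranges of Sdha -0.014 to 0.079, Sdhb -0.024 to 0.12, Cox7a2 -0.033 to 0.13, Ndufa4 -0.061 to 0.054, Atp5g3 -0.11 to 0.050 for long-term PM2.5 against PBS and of Sdhd -0.014 to 0.39, Cox4i2 -0.20 to 0.22, Cox6b2 -0.051 to 0.42 for short-term PM2.5 against PBS.

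The correction with the shortest transcript was added after seeing the data. With 3 libraries a group and no depth, small differences were not detectable. DSN treatment lowers abundant transcripts, OXPHOS genes have processed pseudogene copies whose reads can be shared, and transcript length, GC content and the short-term group cannot be told apart as a source of the short-term values. The cause of the values that moved was not tested.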

Other observations

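Markers of other lung cells and of mitochondrial stress also moved with short-term PM2.5 against PBS. Of 15 tested markers of multiciliated cells 2 rose and 7 fell, with 1 risen without long-term replicate 2, short-term replicate 1 or 3 or PBS replicate 1 or 2, and 0 without PBS replicate 3. Of 14 tested alveolar macrophage markers 3 rose and 5 fell, with 3 fallen without short-term replicate 1 or PBS replicate 1 or 2 and 9 after the length and GC correction. The median log2 difference of the 14 was -0.48. Ear1 and Ear2 were among the fallen, and Cd68 (1.18) and Ctsk, cathepsin K (1.74), among the risen. The summed TPM of this list was 688 to 958 with short-term PM2.5 and 893 to 1151 with PBS. Over all tested genes 11.7% rose and 40.3% fell, or 7.72% and 41.8% after the correction. Of 14 genes of the mitochondrial stress response 3 rose and 2 fell, or none and 2 after the correction. Of that list 1 rose without short-term replicate 3 or PBS replicate 1 or 3, 4 fell without short-term replicate 2, 1 fell without PBS replicate 2, and none fell without any long-term library, short-term replicate 3 or PBS replicate 1 or 3. Hspe1, the small partner of the matrix chaperone Hsp60, had 109, 152 and 108 TPM with short-term PM2.5, against 79.7, 91.8 and 69.2 TPM with PBS (0.60 ± 0.16, limma adjusted p = 0.011), and Clpx, the unfolding subunit of a matrix protease, fell (-0.73 ± 0.26, adjusted p = 0.038). Nnt, the inner membrane transhydrogenase that makes NADPH, had 6.18, 15.4 and 11.6 TPM with short-term PM2.5, against 18.4, 18.8 and 18.9 TPM with PBS (-0.79 ± 0.25, adjusted p = 0.023). After the length and GC correction Hspe1 stood at -0.07, Clpx at -0.63 and Nnt at -0.62. Clpx lost the call in 7 fits that left out 1 library and Nnt without any PBS library.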
